A study of Arabidopsis thaliana with 7 samples.

Results

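The 5 pseudo-response regulator (PRR) genes of the Arabidopsis clock, PRR9, PRR7, PRR5, PRR3 and TOC1, were examined for binding of HY5-YFP in blue and in red light. A peak belonged to a gene when its centre lay from 1500 bp outside to 500 bp inside either end of that gene. This took in 38 of the 41276 peaks of the 6 peak lists, and joined where they overlapped they made 8 of 10233 sites. PRR5 had 3 of these sites, TOC1 had 2, and PRR9, PRR7 and PRR3 had 1 each.

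PRR proteins carry a receiver-like domain that lacks the phosphate-accepting residue of true response regulators, and a CCT domain through which they reach DNA. Their transcripts appear one after another through the day, PRR9 after dawn, then PRR7 and PRR5, and PRR3 and TOC1 towards dusk, and the proteins repress CCA1 and LHY, the morning genes of the clock. HY5 is a bZIP transcription factor that accumulates in the light downstream of several photoreceptors.

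Chromatin immunoprecipitation with sequencing (ChIP-seq) was done on whole plants of the Wassilevskija (Ws) accession. Every plant, in both lights and for the mock, carried the hy5-ks50 insertion mutation (a T-DNA insertion) and expressed the HY5-YFP fusion, whose promoter the labels do not give. Plants were entrained to cycles of light and dark, then held for 52 hours in blue or in red light at a fluence rate of 15 µmol per square metre and second, and fixed at 10 days of age, with 3 biological replicates in each light. The single mock, a precipitation with beads that carry no antibody, was made from the mixed blue light triplicates, so red light peaks were called against blue light chromatin. No plants without the fusion enter these comparisons.

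The libraries held 7.99 to 11.9 M tags (1 M is 1e6), and a peak's level is given as tags in its window per 10 M tags of the library. Windows were 306 to 348 bp wide except in red light replicate 1, where they were 549 bp, following a fragment length estimated at 548 bp against 188 to 226 bp elsewhere. Its values, which come from wider windows, stand apart in several results below and are given with and without it. Red light libraries had 4027 to 5672 peaks and blue light libraries 8524 to 8888. Main PRR sites held 158 to 765 tags per library before scaling, which sets a counting error of 3.62% to 7.96% of each value. Tissue was not separated, so fewer cells with bound HY5-YFP and less HY5-YFP bound per cell cannot be told apart.

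All 5 PRR genes had a consensus site in both lights, meaning a site with a peak in 2 or more of the 3 replicates. Over 27444 protein-coding genes the share with one was 43.2% in blue and 26.4% in red light. At PRR9, PRR7, PRR5 and TOC1 the main site was called in all 6 libraries, as at 19.4% of protein-coding genes. PRR3 lacked a peak in red light replicate 1.

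PRR9, the dawn member, had its site on chromosome 2 at positions 19232169 to 19232717 (TAIR10), between AT2G46780 and PRR9 (AT2G46790). Peak centres lay 126 to 172 bp outside the lower-coordinate end of the gene, and 46 bp separated the outermost ones. In blue light the site held 654.8, 562.7 and 650.6 tags per 10 M in replicates 1, 2 and 3, a mean of 623 ± 52.0 (SD, n = 3). In red light it held 621.4, 507.0 and 533.4 tags, a mean of 554 ± 59.9 (SD, n = 3). Both lights overlapped, since red light replicate 1 exceeded the lowest blue value. The mock had 14.0 tags in this window, and 22.0 in the wide one. The authors' fold over the mock was 27.5 to 32.0 in blue light, 24.8 and 26.1 in red light replicates 2 and 3, and 19.3 in red light replicate 1. These were the highest folds over the mock among the 8 sites in each of the 6 libraries.

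PRR7, which acts with PRR9 in the morning and whose loss together with PRR9 lengthens the clock period, had its site on chromosome 5 at positions 642030 to 642662. It lies outside the higher-coordinate end of PRR7 (AT5G02810), towards a tRNA gene (AT5G02815) and RHL2 (AT5G02820). Blue light replicates 1 to 3 held 440.8, 446.0 and 461.7 tags per 10 M, a mean of 449.5 ± 10.9 (SD, n = 3). Red light replicates 1 to 3 held 472.9, 297.2 and 328.1, a mean of 366 ± 93.8 (SD, n = 3). Red light replicate 1 was the highest of the 6 and the other red light libraries were the lowest, so the groups overlapped through that library alone.

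The PRR7 peak was not centred at the same place in every library. Centres lay 338, 307 and 353 bp outside the gene in blue light replicates 1, 2 and 3 and 358 bp outside it in red light replicate 1, but 153 and 185 bp outside it in red light replicates 2 and 3. The mean blue centre was 164 bp farther from PRR7 than that of red light replicates 2 and 3, and a shift at least this large was found at 17 of the 3557 sites called in all 6 libraries (0.478%), where the median shift was 11.0 bp. The focus ratio, the caller's share of tags that lie where a single binding position would put them, was 0.660 to 0.723 at PRR7. Its mean over the libraries was 0.695, and 3.63% of the 3557 sites had a mean as low or lower, against a median of 0.828. Both measures at PRR7 were singled out after their values were seen. The shift leaves out red light replicate 1 at every site. At PRR7 that library was centred near the blue ones, and no share was computed with it. The windows of red light replicates 2 and 3 at PRR7 therefore cover partly different sequence from the blue ones. The wider window of red light replicate 1 contains the blue ones. Tags compared at PRR7 are those of each library's own window.

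PRR5, which promotes the nuclear accumulation of TOC1, had the lowest main site of the genes called in all 6 libraries, on chromosome 5 at positions 8358568 to 8359116. Its centres lay 296 to 329 bp outside the higher-coordinate end of PRR5 (AT5G24470). Blue light replicates 1 to 3 held 202.9, 199.8 and 210.2 tags per 10 M (204 ± 5.34, SD, n = 3), and red light replicates 1 to 3 held 201.2, 179.4 and 144.7 (175 ± 28.5, SD, n = 3). The lights overlapped through red light replicate 1, which lay between the blue values, while the other red light libraries lay below all of them.

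PRR5 had further sites on either side. At positions 8359736 to 8360089, inside the long non-coding RNA gene AT5G03755, the blue light replicates held 196.9, 171.1 and 187.7 tags per 10 M and red light replicate 3 held 152.3, with centres 1358 to 1373 bp outside PRR5. At positions 8354605 to 8354959, inside the neighbouring gene AT5G24460, the blue light replicates held 148.1, 171.1 and 177.7 tags, 1419 to 1426 bp outside the other end of PRR5, and no red light library had a peak. The authors' fold over the mock at these sites was 4.40 to 6.40, close to the 4-fold that a peak needed, so red light tags just below that bar would not be listed. Of the 11868 protein-coding genes with a blue consensus site, 22 (0.185%) had 3 or more of them, PRR5 among these.

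PRR3, which protects TOC1 from the F-box protein ZTL, had its site on chromosome 5 at positions 24201301 to 24201674, overlapping the higher-coordinate end of PRR3 (AT5G60100). Centres lay 42 to 90 bp outside the gene. The site held 247.4, 217.6 and 240.2 tags per 10 M in blue light replicates 1 to 3 (235 ± 15.5, SD, n = 3), and 170.7 and 132.9 in red light replicates 2 and 3. Both red light values lay below all blue ones, and red light replicate 1 gave none. The fold over the mock was 7.44 to 8.09 in blue light, and 6.49 and 5.68 in the red light libraries with a peak.

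TOC1, the dusk member of the family and a repressor of CCA1, had its main site on chromosome 5 at positions 24674645 to 24675193, across the lower-coordinate end of TOC1 (AT5G61380). Its centres lay 44 to 74 bp outside the gene. Blue light replicates 1 to 3 held 636.9, 661.6 and 654.4 tags per 10 M (651 ± 12.7, SD, n = 3), and red light replicates 1 to 3 held 605.5, 438.5 and 423.2 (489 ± 101, SD, n = 3). Each blue value exceeded each red one. Of the 4 PRR genes with a site in all 6 libraries, TOC1 alone showed this order, against 59.4% of the 3557 such sites. Its fold over the surroundings was 18.3 to 20.5 in blue and 11.8 to 15.7 in red light.

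A lower TOC1 site, on chromosome 5 at positions 24673782 to 24674158, was called in blue light replicate 2 (209.6 tags per 10 M) and blue light replicate 3 (216.5 tags) and in no other library, 979 and 1011 bp outside the same end. It makes TOC1 a gene with 2 blue consensus sites, and 11.5% of genes with a blue consensus site had 2 or more. Its fold over the surroundings, 4.16 and 4.49, lay near the required 4-fold. Beyond the limit of 1500 bp, the nearest site to a PRR gene lay 2193 to 2220 bp from PRR9, inside ZAT, with 390 ± 23.1 tags under blue light and 274 ± 40.0 under red (SD, n = 3).

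**Figure D1:**
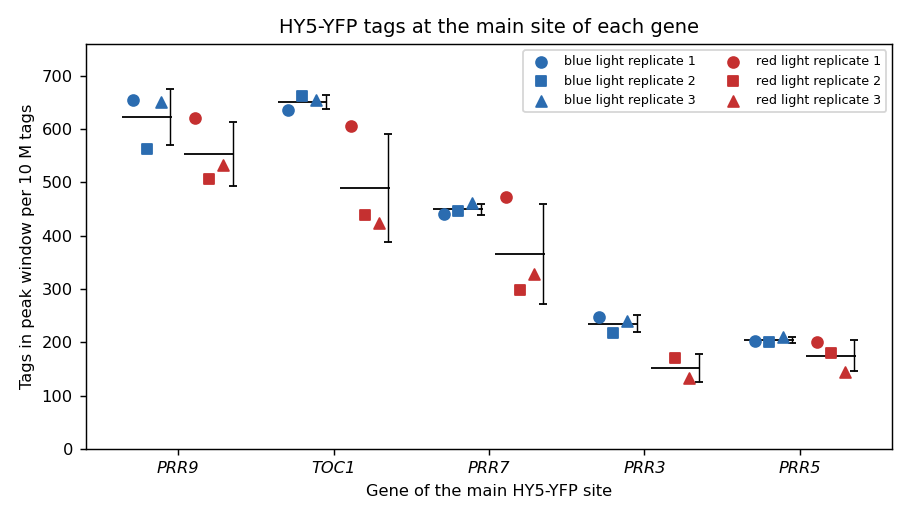
HY5-YFP tags per 10 M tags of the library at the main site of each PRR gene, with 1 point per library, blue light in blue and red light in red, horizontal lines for means and bars for SD (n = 3, and n = 2 for PRR3 in red light). The circle of red light replicate 1 lies above the other red light points at all 4 genes where it has a peak, from 201.2 tags at PRR5 to 621.4 at PRR9.

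**Figure D2:**
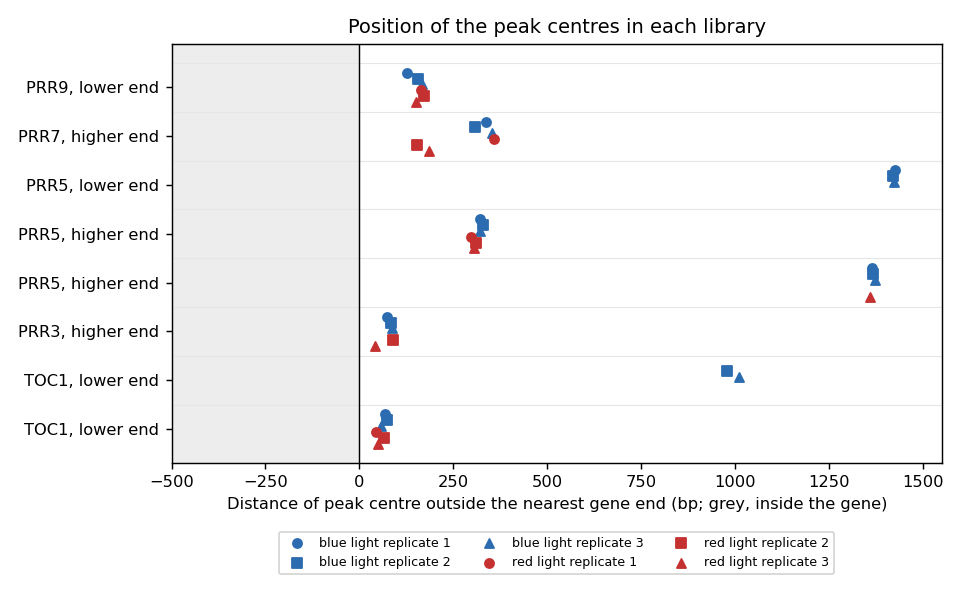
Distance of each peak centre from the nearest end of its gene, in bp outside the gene, with 1 row per site and 1 point per library. At PRR7 the centres of red light replicates 2 and 3 lie at 153 and 185 bp and those of the other libraries at 307 to 358 bp, while at PRR9 all 6 lie within 46 bp.

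Ordered by blue light mean, the main sites ran TOC1, PRR9, PRR7, PRR3 and PRR5, each window within a library being equally wide. TOC1 and PRR9 were not separated by their spread, since the ratio of PRR9 to TOC1 tags within a library was 1.03, 0.851 and 0.994 in blue light replicates 1 to 3. In red light the ratio was 1.03, 1.16 and 1.26, so PRR9 was the higher of the pair in all 3 red light libraries and in 1 blue one. A ratio within a library does not depend on how libraries are scaled. The groups overlapped through red light replicate 1, whose ratio lay just below that of blue light replicate 1.

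PRR7 lay below both TOC1 and PRR9 in all 6 libraries, with TOC1 over PRR7 at 1.45 ± 0.0332 under blue light and 1.35 ± 0.110 under red (SD, n = 3). TOC1 over PRR5 was 3.14, 3.31 and 3.11 in blue light and 3.01, 2.44 and 2.92 in red light, and these values did not overlap. PRR9 over PRR3 did not overlap either, at 2.65, 2.59 and 2.71 in blue light and 2.97 and 4.01 in red light replicates 2 and 3. Apart from PRR3 over PRR5, the ratios of all other pairs overlapped between the lights. How often ratios of other sites separate the lights was not computed, so these separations are not read as a trait of the PRR genes. PRR3 stood above PRR5 in every blue light library, with ratios of 1.22, 1.09 and 1.14, and below it in red light replicates 2 and 3, with 0.952 and 0.918. Exact permutation of 3 against 3 libraries cannot go below p = 0.1, so these ratios are given without a test.

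Blue and red light were compared with limma on log2(tags per 10 M + 1) over the 3557 sites with a peak in every library, and p-values were adjusted over all of them by Benjamini-Hochberg. No PRR site passed at an adjusted p of 0.05, while 51.9% of all tested sites passed as higher in blue light and 0.0281% as higher in red light. The log2 fold, blue minus red, was 0.43 at TOC1 (SE 0.21, adjusted p = 0.0696), 0.32 at PRR7 (SE 0.21, adjusted p = 0.149), 0.23 at PRR5 (SE 0.22, adjusted p = 0.306) and 0.17 at PRR9 (SE 0.21, adjusted p = 0.442). The median over the 4 was 0.28, against 0.48 over all tested sites. Of all tested sites, 4.39% had a smaller fold than PRR9, 7.73% than PRR5, 16.4% than PRR7 and 37.3% than TOC1. A p above the threshold does not show that the lights were alike at these sites.

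These calls turned on red light replicate 1. Without it all 5 genes passed as higher in blue light (limma, adjusted p = 0.00313 at PRR5 and lower at the others), with log2 folds of 0.64 at PRR3 (SE 0.11), 0.59 at TOC1 (SE 0.07), 0.52 at PRR7 (SE 0.08), 0.34 at PRR5 (SE 0.11) and 0.26 at PRR9 (SE 0.07). In that fit 98.1% of 4633 sites passed in the same direction, so the count is near the background. PRR3 has no value in red light replicate 1, and a limma fit that drops only the missing libraries gave it a log2 fold of 0.64 (SE 0.18, adjusted p = 0.00866), where 67.8% of 4975 sites passed as higher in blue light. Dividing tags by the window's width also brought PRR9, PRR7, PRR5 and TOC1 past the threshold (limma, adjusted p at most 0.0177), as it did 96.3% of the 3557 sites as higher in blue light.

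Since the median site held more tags in blue light, by 0.53 (log2) over the library medians, the change relative to the median was fitted as well. Relative to the median, PRR9 and PRR5 leaned to red light. PRR9 lay 0.85, 0.67 and 0.84 above the library median (log2) in blue light replicates 1 to 3, and 0.96, 1.20 and 1.28 above it in red light. The difference was -0.36 (SE 0.07, limma adjusted p = 0.000366), and all 3 red values exceeded all 3 blue ones. PRR5 lay below the median everywhere, at -0.83, -0.81 and -0.78 relative to it in blue and at -0.66, -0.29 and -0.60 in red light, a difference of -0.29 (SE 0.11, limma adjusted p = 0.0484). PRR7 differed by -0.20 (SE 0.08, limma adjusted p = 0.0542) and TOC1 by -0.10 (SE 0.07, limma adjusted p = 0.339), neither of which passed.

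Toward red light 11.8% of all tested sites passed in the centred fit, and 7.96% toward blue light. At all 4 PRR sites the 3 red values relative to the median lay above the 3 blue ones, as at 21.3% of all tested sites. The median of the 4 differences was -0.25, against -0.04 over all tested sites. Without centring each of the 4 had more tags in blue light on average, so a lean to red light here means a smaller difference between lights than at the median site and not more tags in red light. The approximate IP efficiency in the file headers, the caller's share of tags that fall in peaks, was 24.8% to 25.7% in blue and 12.7% to 15.9% in red light libraries, and its part in the shift of the median and in these values was not tested. The PRR9 call was kept with each library left out in turn (differences of -0.43 to -0.29, limma adjusted p at most 0.0123). The PRR5 call was kept only without red light replicate 1 (-0.35, adjusted p = 0.0164) and ended with any other library left out (adjusted p up to 0.297, without red light replicate 2). For PRR7 the call was made in 1 of 6 such fits, without red light replicate 2 (-0.25, limma adjusted p = 0.0338).

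**Figure D3:**
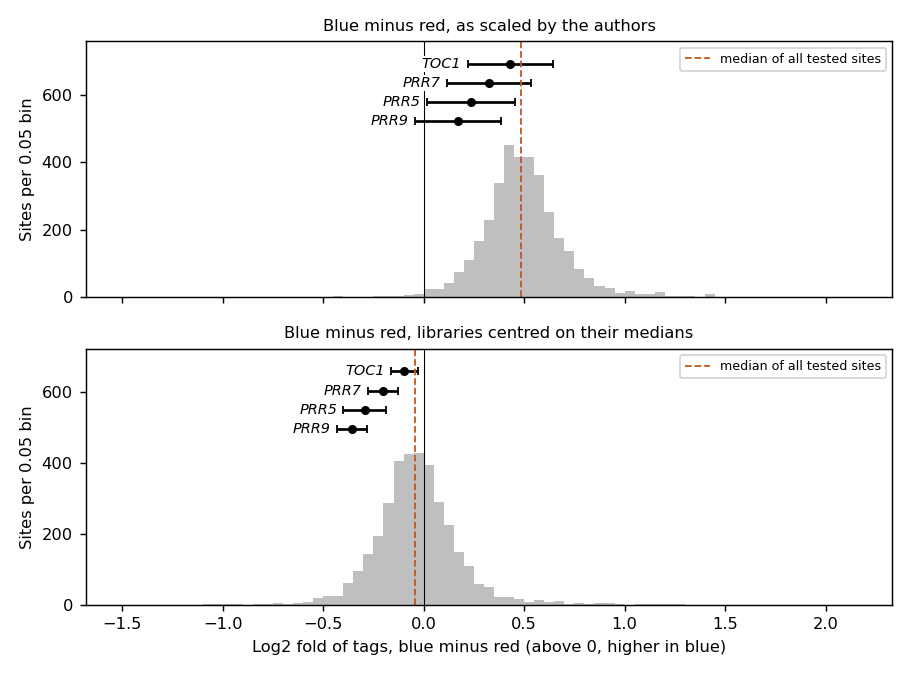
Log2 fold of tags, blue minus red, over the 3557 sites called in all 6 libraries (grey, sites per 0.05 bin), with PRR9, PRR5, PRR7 and TOC1 as points with SE and the median of all sites as a dashed line. As scaled by the authors the 4 genes lie between 0.17 and 0.43, left of the median of 0.48, and with centred libraries between -0.36 and -0.10.

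The same lean was seen in ranks, which need no scaling. Among the 3557 sites, counted from the highest, PRR9 ranked 590, 787 and 605 in blue light replicates 1 to 3 and 513, 339 and 293 in red light. TOC1 held nearly the same place throughout, at 625, 562 and 597 in blue and 552, 495 and 527 in red light. PRR7 ranked 1294, 1192 and 1171 in blue and 892, 1055 and 877 in red light, and PRR5 ranked 3135, 3117 and 3064 in blue and 2997, 2359 and 2902 in red light. At each of these 4 genes every red light rank was higher in the list than every blue one. The share of the 3557 sites with this order of ranks was not computed. In the centred values 21.3% of them had all red light values above all blue light ones. Ranks and centred values rest on the same tags and are not separate evidence.

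**Figure D4:**
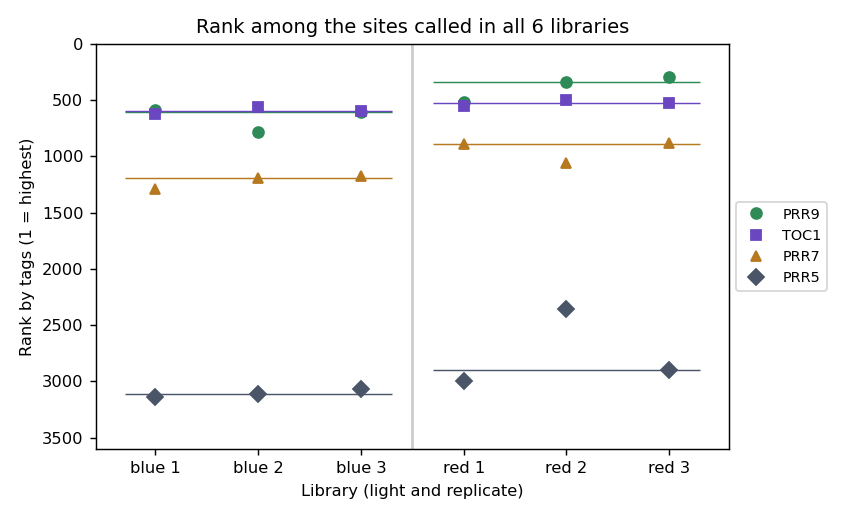
Rank by tags (1 is the highest) of PRR9, TOC1, PRR7 and PRR5 among the 3557 sites called in all 6 libraries, with 1 point per library and lines for the median of each light. PRR9 moves from ranks of 590 to 787 in blue light to 293 to 513 in red light, while TOC1 stays between 495 and 625.

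The PRR genes act on and beside other clock genes, which were grouped by role. Of 24 other clock genes, a consensus site was found at 23 in blue light and at 18 in red light, beside 43.2% and 26.4% of protein-coding genes, and 16 had a site in all 6 libraries. The highest by blue light mean were LHY and CCA1 of the morning MYB factors (602 and 306 tags per 10 M), LNK3 and LNK4 of the LNK coactivators (874 and 659), LUX and BOA of the evening complex (905 and 837), GI and FKF1 of the ZTL group (1077 and 797) and CHE and LWD1 of the other regulators (397 and 244). The next in these groups were RVE8 (273), LNK1 (391), ELF4 (680), LKP2 (160) and LWD2 (229). TOC1 and PRR9 lay within this range. Before centring, limma called 7 of the 16 higher in blue light (LHY, RVE4, LNK4, ELF3, ELF4, LKP2 and LWD2, with log2 folds of 0.48 to 0.80) and none higher in red light, beside 51.9% and 0.0281% of all tested sites, so the count is near the background. In the centred fit ELF4 of the evening complex leaned to blue light (0.27, SE 0.07, limma adjusted p = 0.00817). GI, which stabilises ZTL in blue light, leaned to red light (-0.42, SE 0.06, limma adjusted p = 6.09e-07), as did LNK3, of the LNK family of clock coactivators (-0.23, SE 0.06, limma adjusted p = 0.00549). The median centred difference of the 16 was -0.08. At 5 of them all red values relative to the median lay above all blue ones, beside 21.3% of all tested sites. Among the morning MYB factors, which act in a loop with the PRR genes, 8 of 8 had a consensus site in blue light and 5 of 8 in red light.

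Of 12 genes reported as targets of PRR proteins, a consensus site was found at 11 in blue light and at 9 in red light, again beside 43.2% and 26.4% of protein-coding genes. CCA1, LHY and RVE8 of this list are also counted among the 24 other clock genes. Of the 6 with a site in all libraries, 3 passed limma as higher in blue light before centring and none as higher in red light, namely LHY, the cold regulator CBF3 (0.61, SE 0.22, limma adjusted p = 0.0216) and PIF4, a growth-promoting bHLH factor. This too is near the 51.9% of all tested sites. PIF4 held 327 ± 19.0 tags per 10 M under blue light and 190 ± 33.4 under red (SD, n = 3), a log2 fold of 0.79 (SE 0.21, limma adjusted p = 0.00305). PIF4 also leaned to blue light relative to the median (0.27, SE 0.09, limma adjusted p = 0.0392). CBF3 had the highest site of this list, with 1278 ± 32.5 tags under blue light and 855 ± 225 under red (SD, n = 3), and LHY and PIF5 came next. At CDF1, a repressor of flowering, the blue light mean was 277 ± 28.0 tags (SD, n = 3) and red light libraries lacked a peak. Red light lists were shorter throughout, with 4027 to 5672 peaks against 8524 to 8888. The share of blue consensus sites without a red light peak was not computed.

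Relatives of the PRR proteins were described too. Of 10 type-A response regulators of cytokinin signalling 5 had a consensus site in blue light and 3 in red light, shares that lie near those of all protein-coding genes. ARR9 held 678 ± 21.9 tags per 10 M under blue light and 441 ± 65.0 under red, and ARR8 held 359 ± 1.25 and 259 ± 52.0 (SD, n = 3 each). Both were higher in blue light before centring (limma, adjusted p = 0.016 and 0.0435) and not after it. Before centring 51.9% of all tested sites passed in that direction. ARR15 came next with 256 ± 34.7 tags under blue light (SD, n = 3) and no peak under red. The next was ARR5, with 221 ± 28.8 tags under blue light (SD, n = 3) and 135 ± 16.8 under red (SD, n = 2). ARR4, ARR6, ARR7, ARR16 and ARR17 had no peak in their windows. Of 6 CCT-domain relatives of CONSTANS (CO) 3 had a consensus site in blue light and 2 in red light, beside 43.2% and 26.4% of protein-coding genes. The highest was COL3 with 772 ± 34.4 and 547 ± 97.3 tags (SD, n = 3), followed by COL4 with 367 ± 25.8 and 268 ± 48.3. COL3 passed limma as higher in blue light before centring (adjusted p = 0.0394) and not after it, and COL4 passed in neither fit. At CO, the photoperiod regulator of flowering, blue light libraries held 140 ± 24.0 tags (SD, n = 3) and red light ones lacked a peak. As for CDF1, the absence of red light peaks at ARR15 and CO stands beside red light lists that were shorter throughout. These lists differ in size, and the difference between them and the PRR genes was not tested.

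**Figure D5:**
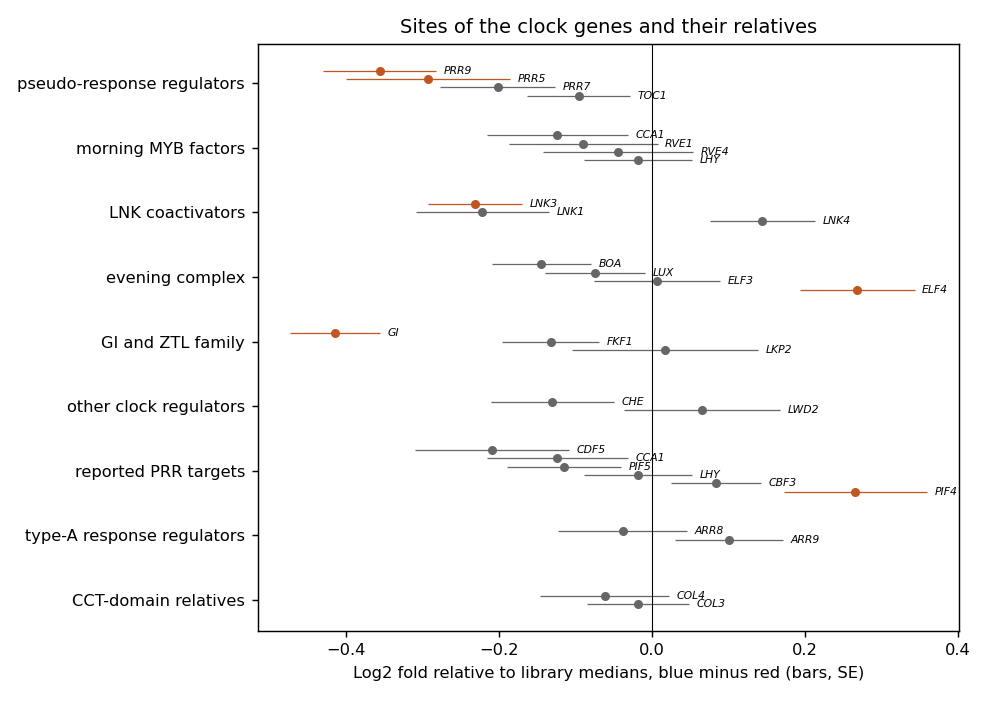
Difference between blue and red light relative to the library medians (log2, bars for SE) at the sites called in all 6 libraries, for PRR genes, other clock genes by role, reported PRR targets and relatives. Orange points passed limma at an adjusted p of 0.05, with PRR9, PRR5, LNK3 and GI to the left of 0 and ELF4 and PIF4 to the right.

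Sites whose tags varied over the 6 libraries most like those of a PRR gene were looked up among all 3557. Likeness was the root mean square difference of log2 tags, after each library's median and each site's mean were removed. For PRR9 these sites lay inside MAPKKK13 (0.0364), 157 bp from HAI3 (0.0409) and inside AT3G48510 (0.0516), against a median distance of 0.217 over all sites. For PRR7 they lay beside FLA15, beside FRS11 and inside AT1G52710 (0.0238 to 0.0322, median of all 0.143). For PRR5 they lay beside TPR3, inside PMSR3 and inside AT5G22450 (0.0171 to 0.0522, median of all 0.198), and for TOC1 beside MEF1, ATSPO11-1 and AT1G32650 (0.0176 to 0.0232, median of all 0.119). Among the PRR genes themselves the nearest pair was PRR7 and TOC1 at 0.0870, followed by PRR9 and PRR5 at 0.130. PRR5 and PRR9 lay 0.139 and 0.177 from TOC1, above its median of 0.119. They lay 0.166 and 0.155 from PRR7, above its median of 0.143. For PRR9 and PRR5 every distance to another PRR gene was below their own medians. Those medians (0.217 and 0.198) were higher than those of PRR7 and TOC1, so this does not set the PRR genes apart. How close the nearest matches of other sites lie was not computed.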

How the data were processed

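Peaks were called by the authors in each library alone with the findPeaks program of HOMER against the mock, per the file headers, and the submitters' processing notes give HOMER 4.9 and TAIR10. A peak needed a 4-fold excess and a Poisson p-value of 0.0001 over the mock and over 10000 bp of surroundings, per the file headers. No aligner is named, that step being not given in the sources used here. The deposited signal is tags per window scaled to 10 M tags of the library, and the mock signal is unscaled. The deposited fold (ratio) over mock and surroundings and the focus ratio (a fraction) were used to describe peaks, while the deposited p-value and score of a peak entered no step.

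Peaks sharing at least 1 bp were joined into sites. For counts of genes, a site belonged to a gene by the mean centre of its peaks. Gene ends, names and neighbours came from the RefSeq table of assembly TAIR10.1, in which all 54 listed loci were found, and distances from gene ends assume that its nuclear chromosomes equal those of TAIR10. The table has no strand, so promoter and terminator ends are not told apart. Tags were tested with limma 3.58.1 in R 4.3.3 (lmFit, eBayes with trend), a pseudocount of 1 and Benjamini-Hochberg adjustment. Joining and figures used Python 3.11.15.

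All PRR genes are described. Of other lists, genes that passed limma and the 3 highest sites are named by rule, as are the 3 most alike sites per gene, and the others named were chosen after their values were seen. Members, lists and alternatives were chosen with earlier results of these data known. Per the labels the replicates are biological, but no separate culture or day is named, so p-values measure the spread between these libraries.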

Additional observations from a re-analysis of the deposited data

How the results depend on the processing

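The fit with missing libraries, quantile normalization and the centred fits with a library left out or with a replicate block were chosen after seeing the data, and planned tests with edgeR and DESeq2 were not run, although whole tags could be had from the scaled values at 100% of peaks (within 0.1 tag). Log2 folds, blue minus red, are given for PRR9, PRR7, PRR5 and TOC1 in that order. Centring reversed 0.17, 0.32, 0.23 and 0.43 to -0.36, -0.20, -0.29 and -0.10, by removing the median shift. Tags per 100 bp of window brought all 4 past the threshold (0.29, 0.44, 0.35 and 0.55). Leaving out each library gave 0.11 to 0.26 at PRR9, 0.19 to 0.52 at PRR7, 0.10 to 0.34 at PRR5 and 0.34 to 0.59 at TOC1, and only without red light replicate 1 did they pass. At PRR3 the fold of 0.64, which has no test over all 6 libraries, moved to -0.068 with centring and to 0.46 to 0.82 with a library left out. A pseudocount of 10, joining at 50% overlap and the replicate block changed no PRR call. Lights share replicate numbers, but deviations of same-numbered libraries correlated at -0.0372, -0.0873 and 0.0452 over sites, and only red light replicate 3 correlated best with its own number, so they were not treated as pairs. With the replicate block limma called 1399 sites in all for blue light and 0 for red (2 at p under 0.05 before adjustment). At 8-fold over the mock PRR7 and PRR5 had no site left in all 6 libraries. In place of 5 PRR genes, 4 kept a blue consensus site and 3 kept a red one. The share of all genes with a consensus site at 8-fold was not computed, so these counts have no background beside them. Sites called in all 6 libraries fell from 3557 to 1183 at that cut.

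Relative to the medians, PRR9 kept its call throughout (-0.43 to -0.29 with a library left out). PRR5 lost it with quantile normalization (-0.24, limma adjusted p = 0.13), the cause of which was not tested, and ranged from -0.35 to -0.18 with a library left out, PRR7 from -0.25 to -0.17, TOC1 from -0.12 to -0.07 and PRR3 from -0.25 to 0.11, with a test only without red light replicate 1 (limma adjusted p = 0.799). With the replicate block and centring PRR9 and PRR5 were called (limma, adjusted p = 5.86e-05 and 0.0428).

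Of all tested sites limma called 1846 for blue light and 1 for red. These numbers became 283 and 421 with centring, 3424 and 8 per 100 bp of window, 3373 and 3 with missing libraries allowed, and 533 and 1 of 1183 at 8-fold. They ranged from 140 to 4543 and from 0 to 6 with a library left out, 4543 being without red light replicate 1. In the centred fit the 421 became 279 with quantile normalization and 241 to 495 with a library left out. Counting error limits a main PRR site to 3.62% to 7.96% per library, and a peak below the caller's thresholds has no value.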
